A study of Mus musculus with 4 samples.

Results

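Argonaute (AGO) binding sites on 10 regulators of the mammalian cell cycle were examined in mouse embryonic stem cells (ESCs) and in myotubes, out of 1707 genes with a binding site in either cell type. The 10 genes were chosen by name, and every cluster annotated to one of them was taken, which gave 11 clusters with 100 reads. A cluster is a short stretch of RNA that was crosslinked to AGO. For the ESC library, cells carrying a doxycycline-inducible HA-Flag-AGO2 transgene received 2.5 ug/ml doxycycline for 15 h, and AGO2 was pulled from the cytoplasmic fraction with a FLAG antibody. For the myotube library, C2C12 cells, a mouse myoblast line, were differentiated into myotubes for 2 days without any transgene named in the labels, and AGO proteins were pulled from the cytoplasm with a peptide that binds the whole family. Both were crosslinked at 312 nm for 5 min. Each group has 1 sample and 1 table, so no difference between the cell types could be tested. Titles of the samples carry a "(2)" of unstated meaning, so a table may come from a single replicate or from several samples pooled. The cells, the source of AGO and the capture method changed together and cannot be told apart. RNA levels were not measured, so stronger AGO binding and a higher RNA level cannot be told apart either, nor can fewer cells with an RNA and less RNA per cell.

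The cell cycle is driven by cyclins and the cyclin-dependent kinases they activate, which phosphorylate the retinoblastoma (pocket) proteins and so free E2F transcription factors to switch on replication genes. Inhibitors of the CIP/KIP family bind cyclin-kinase complexes and hold cells out of S phase. ESCs divide quickly with a short G1 phase, while myotubes have left the cell cycle for good, and miRNAs of the ESC-specific cluster are known to relieve G1 inhibition in ESCs through targets that include Cdkn1a. AGO carries a miRNA to its target mainly through pairing of the seed, bases 2 to 8 of the miRNA, usually in the 3'UTR.

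The bound sequences are shown first, since they carry the positions and miRNA matches described below. They are the clusters as deposited, 5′ to 3′ on the RNA strand. Capitals mark a match to a miRNA seed, and most sequences have none.
Cdkn1b, ESC: caaaaacaataacactaaaattttag
Rbl1, ESC: taaactcctatcatttacttctg
Btg2, ESC: cttaaatcttcaattctttactg
Ccna2, ESC: tttctcttctcaacccaccag
Cdk4, ESC: ctaagcggcctggattttcttcatg
Cdkn1a upstream cluster, myotube: tggttcCTTGCCacttcttacctg
Cdkn1a downstream cluster, myotube: tcttaccttaGGCAGCTccag
Cdkn1c, myotube: cccccacacattcatcttcagttag
Rb1, myotube: attcttttattcacccaacacatg
Lats1, myotube: caACACTACcattttataaaac
Ccnd3, myotube: ctcctcttccttcccactcaaccag
All sequences except that of Lats1 ended in G, the base after which the RNase T1 of the protocol cuts, as did 79.9% of all nuclear mRNA clusters in ESCs and 83.9% in myotubes. Most held no G before that end. The exceptions were the Cdk4 cluster with 6 G in all, both Cdkn1a clusters with 4 each and the Cdkn1c cluster with 2. The median over all nuclear mRNA clusters was 1 G in ESCs and 1 G in myotubes.

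In depth, the tables came to 214955 reads in 2659 clusters for ESCs and 135023 reads in 889 clusters for myotubes. Clusters were found on 7 of 12 ESC marker genes in the ESC library and on 0 of them in the myotube library. They were found on 3 of 15 myotube marker genes in the ESC library and on 8 in the myotube library. Neither library had a cluster on the 6 fibroblast markers, and the 6 neuronal markers gave only Stmn2, with 6 reads in the ESC library.

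The 10 regulators split evenly between the libraries. Cdkn1b, Rbl1, Btg2, Ccna2 and Cdk4 were bound in ESCs alone, and Cdkn1a, Cdkn1c, Rb1, Lats1 and Ccnd3 were bound in myotubes alone. No regulator had a cluster in both. Over all genes with a cluster, 71.7% were in the ESC table alone, 14.4% in the myotube table alone and 13.9% in both. The 5 genes in the myotube table alone are thus a larger part of the 10 than that background, but no test was made, because the genes were chosen with their clusters known. Together the regulators took 0.0205% of ESC cluster reads (44 reads) and 0.0415% of myotube cluster reads (56 reads), with exact 95% intervals of 0.0149 to 0.0275% and 0.0313 to 0.0539%. The gap between the libraries depended on the total: it was 0.200% in ESCs and 1.17% in myotubes of the reads on nuclear mRNA clusters, and 0.0877% and 0.121% of distinct sequences. By gene, the share in ESCs ran from 0.00326% for Btg2 and for Cdk4 to 0.00558% for Ccna2, and that in myotubes from 0.00370% for Lats1 to 0.0141% for Cdkn1c. These were modest levels: 611 of 1461 genes in ESCs had more reads than Ccna2, and 153 of 483 genes in myotubes had more than Cdkn1c. Restricted to clusters with at least 10 reads, Cdkn1b and Ccna2 were left in ESCs and Cdkn1c, Rb1 and Ccnd3 in myotubes. Of all 813 genes with such a cluster, 684 had one in ESCs and 237 (29.2%) in myotubes. All intervals cover counting error only.

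**Figure D1:**
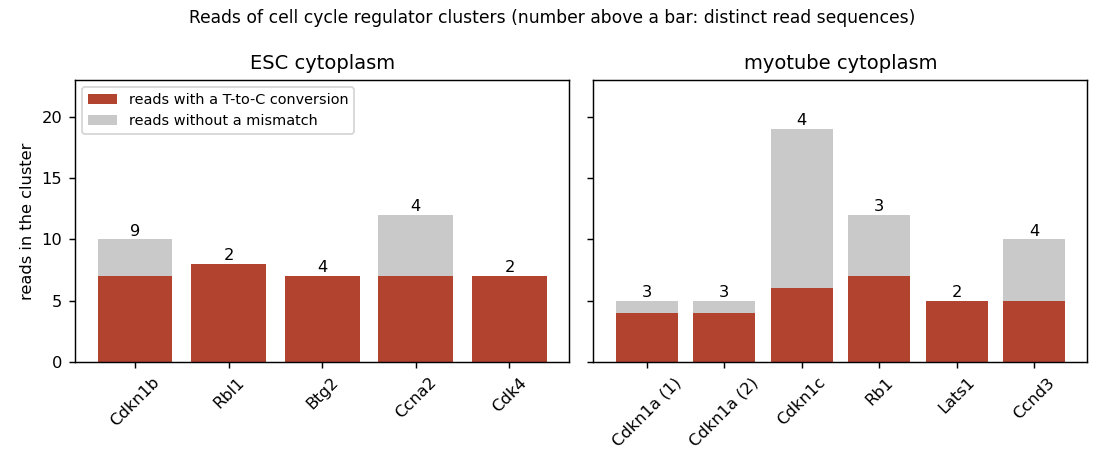
Reads in each cluster of the regulators, in the ESC library (left) and the myotube library (right). Bars are split into reads with a T-to-C conversion (red) and reads without a mismatch (grey), and the number above a bar counts distinct read sequences. The Cdkn1c bar is the tallest at 19 reads, of which 13 are unconverted, and Cdkn1b has 9 distinct sequences in 10 reads.

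The CIP/KIP inhibitors were divided between the cell types. Cdkn1b, which encodes p27, had 10 reads in ESCs and no cluster in myotubes. Its cluster lay in the 3'UTR at chr6:134924371-134924396, 1129 nt before the end of the gene. The 10 reads were 9 distinct sequences, more than in 89.5% of ESC 3'UTR clusters, so they owed little to repeated copies of a sequence. Cdkn1c, the gene of the imprinted inhibitor p57, had no cluster in ESCs and 19 reads in myotubes, the highest count among the regulators. That count was above those of 90.1% of myotube 3'UTR clusters, but it came from 4 distinct sequences. The Cdkn1c cluster lay at chr7:143458477-143458501 on the minus strand, 138 nt before the gene end.

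Cdkn1a, which encodes p21 and is induced both by p53 and during muscle differentiation, was the one regulator with a pair of clusters. It had no cluster in ESCs and 5 reads in each of its clusters in myotubes, the lowest count that any cluster of that table has. Both lay in the 3'UTR, at chr17:29099782-29099805 and chr17:29100220-29100240, with 414 nt between them, and each held 3 distinct sequences. The clusters shared a run of 8 bases, TCTTACCT, which began at base 16 of the upstream and base 1 of the downstream cluster. This run was noticed after the sequences were seen. It occurred in 5 of 1922 nuclear mRNA clusters in ESCs and in 5 of 448 in myotubes, the Cdkn1a clusters included.

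The pocket proteins, which bind and silence E2F factors, were also divided. Rbl1, the gene of p107, had 8 reads in ESCs and no cluster in myotubes. Its cluster was annotated to coding sequence, at chr2:157195617-157195639 on the minus strand, and was made of 2 distinct sequences. Rb1, the retinoblastoma gene itself, had no cluster in ESCs and 12 reads of 3 distinct sequences in myotubes. The Rb1 cluster lay in the 3'UTR at chr14:73196519-73196542 on the minus strand, 3661 nt before the end of the gene, farther from it than any other 3'UTR cluster of the regulators.

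Of the remaining inhibitors, Btg2, an antiproliferative protein that recruits the CCR4-NOT deadenylase, had 7 reads of 4 distinct sequences in ESCs and no cluster in myotubes. It was bound in the 3'UTR at chr1:134075555-134075577 on the minus strand. Lats1, the Hippo pathway kinase that inactivates the growth coactivators YAP and TAZ, had no cluster in ESCs and 5 reads of 2 distinct sequences in myotubes. Its cluster ended 180 nt before the gene end, at chr10:7716260-7716281. Both were small clusters. Of ESC 3'UTR clusters 42.9% had as many reads as Btg2 or fewer, and of those in myotubes 19.3% had as few as Lats1.

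The drivers were Ccna2, Cdk4 and Ccnd3. Ccna2, the cyclin of S phase and of entry into mitosis, had 12 reads of 4 distinct sequences in ESCs and no cluster in myotubes, and was the regulator with the most ESC reads. Its cluster lay in coding sequence at chr3:36566251-36566271 on the minus strand, and its reads exceeded those of 76.7% of ESC coding clusters. Cdk4, the kinase partner of the D-type cyclins, had 7 reads of 2 distinct sequences in ESCs and no cluster in myotubes, again in coding sequence, at chr10:127064853-127064877. Ccnd3, a D-type cyclin known to accumulate as myoblasts differentiate, had no cluster in ESCs and 10 reads of 4 distinct sequences in myotubes. It was bound in the 3'UTR at chr17:47598982-47599006.

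Drivers and inhibitors were present in both tables. In ESCs 3 of the 7 inhibitors and 2 of the 3 drivers had a cluster, and in myotubes 4 inhibitors and 1 driver. Inhibitors took 25 of the 44 regulator reads in ESCs (56.8%, interval 41.0 to 71.7) and 46 of the 56 in myotubes (82.1%, interval 69.6 to 91.1). In distinct sequences the shares were closer, at 71.4% in ESCs (15 of 21) and 78.9% in myotubes (15 of 19). Cdkn1c alone gave 19 of the 46 inhibitor reads in myotubes. Per covered base, inhibitors had 0.347 reads per nt and drivers 0.413 in ESCs, while inhibitors had 0.397 and drivers 0.400 in myotubes.

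By annotation class, coding clusters of the regulators were found in ESCs and none in myotubes. In ESCs 3 of 5 clusters lay in coding sequence, namely those of both drivers and of the inhibitor Rbl1, and 2 in 3'UTRs. In myotubes all 6 clusters lay in 3'UTRs, that of the driver Ccnd3 included. Among all nuclear mRNA clusters, coding sequence held 29.0% in ESCs and 17.0% in myotubes, and 3'UTRs held 68.9% and 81.0%. With so few clusters these counts are a description.

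T-to-C conversion, the mark of direct crosslinking, was present in every cluster of the regulators, at 2 or 3 positions each. Every cluster of either table had at least 2 such positions, so its presence says nothing particular about the regulators. None of the regulator reads carried another mismatch, for which no share over all clusters is given. In Rbl1, Btg2 and Cdk4 in ESCs and in Lats1 in myotubes every read was converted. Full conversion was common over all clusters too. It was found in 24.8% of ESC 3'UTR clusters, 32.8% of ESC coding clusters and 47.4% of myotube 3'UTR clusters. At these depths the lower bound of the interval is still only 63.1% for Rbl1, 59.0% for Btg2 and for Cdk4, and 47.8% for Lats1. Cdkn1b was converted in 70.0% of reads (interval 34.8 to 93.3) and Ccna2 in 58.3% (interval 27.7 to 84.8). Each Cdkn1a cluster was converted in 80.0% of its reads.

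In myotubes the 3 regulator clusters with the most reads had the lowest conversion. Every cluster of either table had at least 4 converted reads, so the small clusters had little room for a low share: a cluster of 5 reads, such as those of Cdkn1a and Lats1, could not fall under 80.0%. Cdkn1c was converted in 6 of 19 reads (31.6%, interval 12.6 to 56.6), the lowest share of all 363 myotube 3'UTR clusters. Ccnd3 was converted in 50.0% of reads (interval 18.7 to 81.3), and 12 of those clusters lay lower. Rb1 was converted in 58.3% of reads (interval 27.7 to 84.8), with 42 clusters lower. The median over these 363 clusters was 90.9%, against 77.8% over 1325 ESC 3'UTR clusters and 80.0% over 558 ESC coding clusters. Summed over reads, the regulators were converted in 81.8% in ESCs (interval 67.3 to 91.8) and in 55.4% in myotubes (interval 41.5 to 68.7). Without Cdkn1c the myotube value was 67.6%. The same sum over all 3'UTR clusters was 68.8% in ESCs and 82.1% in myotubes, and over all coding clusters 73.9% in ESCs and 86.1% in myotubes. The summed value of the regulators was thus above both class sums in ESCs, though its interval held both, and below the 3'UTR sum in myotubes. By cluster, Rbl1, Btg2 and Cdk4 lay above their class median in ESCs, but Ccna2 (58.3%) and Cdkn1b (70.0%) lay below theirs. The class sums also include far larger clusters, of up to 282 reads in ESC 3'UTRs. These differences were not tested.

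**Figure D2:**
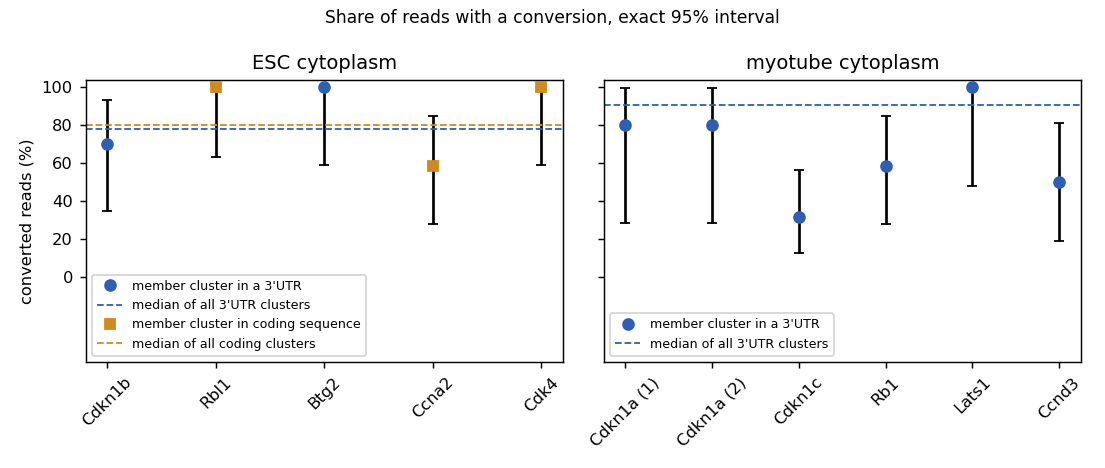
Share of reads with a T-to-C conversion in each regulator cluster of the ESC library (left) and the myotube library (right), in percent, with exact 95% intervals. Circles are 3'UTR clusters and squares coding clusters, and dashed lines give the median of all clusters of the class in that library. In myotubes the intervals of Cdkn1c, Rb1 and Ccnd3 lie below the dashed line at 90.9%. These intervals take reads as independent, but each of these clusters holds only 3 or 4 distinct sequences, so they are too narrow. The line is the median over clusters of all sizes, and small ones had little room for a low share.

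Seed matches were searched for 46 listed miRNAs, as sites of 7 bases complementary to miRNA bases 2 to 8, on the strand of the cluster. None of the 5 ESC clusters held such a site, and 2 of the 6 myotube clusters did. Over all clusters, 10.5% of ESC 3'UTR clusters, 8.96% of ESC coding clusters and 11.8% of myotube 3'UTR clusters held one. The miRNAs concerned are shown with their seeds in capitals, from RefSeq (GRCm38.p6).
miR-22-3p: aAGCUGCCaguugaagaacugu
miR-142a-3p: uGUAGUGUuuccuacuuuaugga
miR-31-5p: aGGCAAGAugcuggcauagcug
The downstream Cdkn1a cluster held GGCAGCT, the site of miR-22-3p, at bases 11 to 17, with the mode position, where the conversion signal peaks, at base 1. The Lats1 cluster held ACACTAC, the site of miR-142a-3p, at bases 3 to 9, and its mode lay at base 22, downstream of the site. The upstream Cdkn1a cluster held a 6-base match, CTTGCC, to bases 2 to 7 of miR-31-5p, next to the mode at base 13. The base after this match was A, which makes it a 7mer-A1 site, another 7-base form. With this form counted too, 3 of the 6 myotube clusters held a site, beside 15.4% of myotube 3'UTR clusters. Sites of 6 bases were found in 24.2% of myotube 3'UTR clusters and 23.2% of those in ESCs.

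The matched miRNAs had no cluster of their own in the myotube library. No cluster lay on mature miR-22-3p or miR-31-5p in either table. The same held for miR-291a-3p and miR-17-5p, whose sites are counted below. A miRNA without a cluster is only below the limit for calling one, so a missing cluster does not show that it was absent. Mature miR-142a-3p had 43654 reads in ESCs and no cluster in myotubes, where the Lats1 site was found. Its site was in 11 of 1325 ESC 3'UTR clusters (0.830%) and in 2 of 363 in myotubes (0.551%). That of miR-22-3p was in 0 of 1325 in ESCs and 2 of 363 in myotubes. The site of miR-291a-3p, of the ESC-specific family, was in 27 ESC 3'UTR clusters and in 0 in myotubes, and that of miR-17-5p in 38 and 2, but neither was in any cluster of the regulators. Only the cluster sequences could be searched, so a site beside a cluster would not have been seen.

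**Figure D3:**
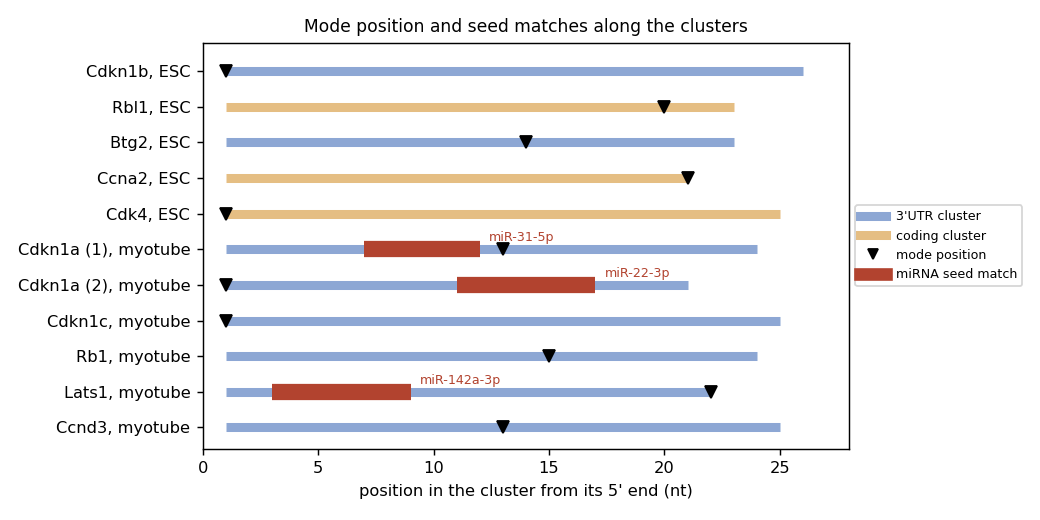
Each regulator cluster drawn from its 5′ end, in nt, with 3'UTR clusters in blue and coding clusters in yellow, ESC clusters above myotube clusters. Triangles mark the mode position and red bars a seed match, which has 6 bases for miR-31-5p and 7 bases for the others. The mode lies on the first or last base in Cdkn1b, Ccna2 and Cdk4 in ESCs and in Cdkn1c, Lats1 and the downstream Cdkn1a cluster in myotubes, as it does in 33.7% of all ESC 3'UTR clusters, 37.3% of ESC coding clusters and 32.0% of myotube 3'UTR clusters.

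Of 79 other cell cycle genes, 15 were bound, 14 of them (93.3%) in the ESC library and 2 (13.3%) in the myotube library, with Tob1 common to both. Over all genes with a cluster these shares were 85.6% in ESCs and 28.3% in myotubes, and the difference was not tested. With the 10 regulators added, whose clusters were known when they were chosen, 25 of 89 listed genes were bound, 19 (76.0%) in the ESC library and 7 (28.0%) in the myotube library. None of the 15 other cyclins and kinases listed and none of the 5 INK4 inhibitors and remaining pocket protein genes had a cluster in either table. The bound genes of these kinds, Ccna2, Ccnd3, Cdk4, Rb1 and Rbl1, were among the 10 regulators, so these counts do not describe whole families.

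Several of these genes act beside the regulators. Tob1, an antiproliferative relative of Btg2, was the gene bound in both, with 48 reads in ESCs and 18 in myotubes. Its 3'UTR held the only overlapping pair of clusters of the list, with 40 reads in ESCs and 9 in myotubes. Over all nuclear mRNA clusters, 4.94% of those in ESCs and 21.2% of those in myotubes overlapped one of the other library. Both clusters of the Tob1 pair held the site of miR-25-3p, shown here in capitals in the shorter, myotube cluster at chr11:94215374-94215395. A 5'UTR cluster of Tob1 in ESCs held overlapping sites of miR-17-5p and miR-291a-3p.
Tob1, myotube: tacctatattGTGCAATacttg
In the Hippo pathway, the kinase cofactor gene Mob1a had 10 reads and the upstream activator gene Nf2 15 reads in ESCs, with no cluster in myotubes, whereas Wwtr1, the gene of TAZ, had no cluster in ESCs and 7 reads in myotubes. The coding cluster of Mob1a held overlapping sites of miR-138-5p, miR-291a-3p and miR-17-5p, which began at bases 11, 15 and 16. E2f4, the E2F factor that works with the pocket proteins as a repressor, had 22 reads in 3 clusters in ESCs, and its partner gene Tfdp2 had 5. The coding cluster of E2f4 held the site of let-7a-5p. Of the genes that license and unwind replication origins, Mcm4 had 24 reads, Cdt1 10 and Mcm2 7 in ESCs, and none had a cluster in myotubes. The growth regulators Mycn (40 reads) and Trp53 (23 reads), the mitotic genes Mad2l1 (8 reads), Fzr1 (7 reads) and Aurkb (5 reads), and Btg1 (5 reads) likewise had clusters in ESCs and none in myotubes. A 3'UTR cluster of Mycn held the site of miR-29a-3p. Over all nuclear mRNA clusters, 10.1% in ESCs and 10.7% in myotubes held a 7-base site of the listed miRNAs.

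**Figure D4:**
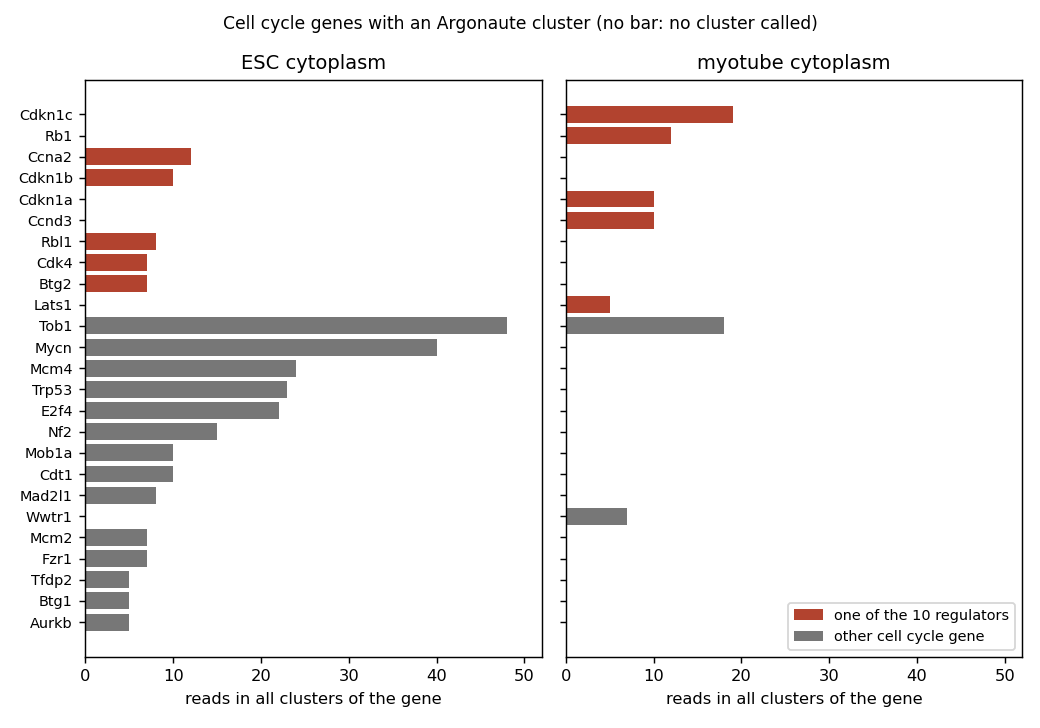
Reads summed over the clusters of each listed cell cycle gene with a cluster, in ESCs (left) and myotubes (right). Red bars are the 10 regulators and grey bars other genes of the list, and a missing bar means that no cluster was called. Tob1 is the one gene with a bar on both sides, at 48 and 18 reads.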

How the data were processed

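Cytoplasmic AGO PAR-CLIP tables of ESCs and C2C12 myotubes were used, 1 table per group, each assigned by its worksheet name; the nuclear samples were not analysed here. Per the file headers, the deposited columns hold raw counts of reads, distinct sequences and conversions per cluster, and shares of reads as a fraction. The deposited mode score was not used, and the deposited conversion specificity equalled log10 of converted reads over other mismatched reads plus 1. The submitters' processing notes name bcl2fastq 2.17.1 and the genome build mm10; which aligner and which cluster caller were used is not given in the sources used here. Every cluster had at least 2 conversion positions and at least 4 reads (ESCs) or 5 reads (myotubes), so a gene without a cluster is below a calling limit, not at 0, and no fold was computed.

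Conversion was converted reads over converted plus unconverted reads. Intervals are exact (Clopper-Pearson, 95%, scipy 1.17.1) and cover counting error only, since PCR reads are not independent molecules. No test was made. Gene ends came from RefSeq (GRCm38.p6, the assembly behind mm10). Of 55 listed miRNAs, 46 were in the RefSeq table; miR-1a-3p, miR-133a-3p, miR-122-5p, miR-124-3p, miR-135b-5p, miR-143-3p, miR-145a-5p, miR-378a-3p and miR-486a-5p were not. The site search was tested on simulated data. All 10 regulators are named; of the wider list, every gene with a cluster is named. Members and lists were chosen with earlier results of these data known.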

Additional observations from a re-analysis of the deposited data

How the results depend on the processing

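No paired analysis was possible because each group has 1 table. Small counts limit every value here. With at least 10 reads per cluster, 2 regulators were left in ESCs (1 inhibitor, 1 driver) and 3 in myotubes (2 inhibitors, 1 driver). Of the wider list, 7 genes were left in ESCs and 0 in myotubes. Of all 813 genes left, 684 had an ESC cluster and 237 (29.2%) a myotube cluster. With 3'UTR clusters only, 2 regulators were left in ESCs, with 0 drivers, and 5 in myotubes (4 inhibitors, 1 driver). Of all 1029 genes left, 871 had an ESC cluster and 275 (26.7%) a myotube cluster. With at least 3 conversion positions 2 regulators were left in each library, beside 846 genes in ESCs and 248 (25.5%) in myotubes of all 971 left. With at least 3 distinct sequences, an alternative chosen after seeing the data, 3 regulators were left in ESCs, with 1 driver. In myotubes 4 were left, also with 1 driver. Of all 1443 genes left, 1258 had an ESC cluster and 371 (25.7%) a myotube cluster. Each setting removes clusters by construction, those of Ccna2, Cdk4 and Rbl1 as coding clusters and those of Cdkn1b and Rb1, among others, for their 2 conversion positions. Of the sites, 0 were left in myotubes with families that have sites in at least 5 clusters of the table, whereas 3 clusters held a 6-base match. With 7mer-A1 sites counted as well, 3 myotube clusters and 0 ESC clusters held a site. With every RefSeq mature miRNA (added after seeing the data), 4 ESC and 5 myotube clusters held a match, beside 79.2% and 77.2% of all nuclear mRNA clusters. The regulators' share was 0.200% in ESCs and 1.17% in myotubes of nuclear mRNA cluster reads, and 0.0877% and 0.121% of distinct sequences; all 10 single-gene shares moved likewise, by construction. Conversion from the authors' fraction was the same by construction, since no regulator read carried another mismatch. Leaving out each cluster in turn gave 77.8 to 90.6% in ESCs and 51.0 to 67.6% in myotubes.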

Other observations

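The deposited share of reads that end in G followed the strand of the cluster, not its sequence. In the regulators it was 0 for all 5 minus-strand clusters (Rbl1, Btg2 and Ccna2 in ESCs, Cdkn1c and Rb1 in myotubes), whose sequences all end in G, and 60% to 100% for the 6 plus-strand clusters. Over nuclear mRNA clusters it was 0 in 97.2% of minus-strand and 2.79% of plus-strand clusters in ESCs, and in 99.5% and 4.74% in myotubes, while 93.1% and 93.5% of the minus-strand sequences ended in G. This column was therefore not used to describe the clusters.

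Btg2 in ESCs and Rb1 in myotubes shared a 7-base match to the seed of miR-186-5p, which was outside the list and was noticed after the sequences were seen. It lay at bases 13 to 19 in Btg2, across the mode at base 14, and at bases 1 to 7 in Rb1, upstream of the mode at base 15. The same 7 bases occurred in 1.51% of nuclear mRNA clusters in ESCs and in 1.79% in myotubes, and each miRNA of the reference table had many such chances to match.
miR-186-5p: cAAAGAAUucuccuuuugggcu
Btg2, ESC: cttaaatcttcaATTCTTTactg
Rb1, myotube: ATTCTTTtattcacccaacacatg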
